A study of Mus musculus with 2 samples.

Results

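Cell cycle genes were followed in leukocytes of mouse tumours as 2 lists, 19 genes of S phase, when DNA is copied, and 19 genes of G2 and mitosis (G2/M), when the copied chromosomes are condensed and divided. The 38 members were chosen by symbol, and all 38 are among the 32589 genes of the count tables. The samples were MC38 tumours, grown from a mouse colon carcinoma line and taken 19 days after inoculation, from which live cells positive for CD45, the surface protein of leukocytes, were sorted. A library was made from a control group (Ctrl) and another from a group given BiDT, each from 5 pooled biological replicates, and both are of batch 1. The labels do not define BiDT or the control treatment, and they give no strain, age, sex or dose; the series title names a fusion protein of anti-TIM3 and an interferon. With 1 pooled library per group there was no test of any difference, and all intervals given are 95% intervals that cover counting error only, not the spread between animals.

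A cell that starts to divide first switches on genes for copying DNA. Members of this kind are the Mcm2 to Mcm7 subunits of the replicative helicase, its loader Cdc6 and partners Cdc45 and Gins2, the sliding clamp Pcna and its binding protein Pclaf, and the nucleotide enzymes Tyms, Dut, Rrm1 and Rrm2, many of which are known targets of E2F transcription factors. Later the cell switches on genes for entering and completing mitosis, among them the cyclins Ccna2, Ccnb1 and Ccnb2 with their kinase Cdk1, the kinases Plk1, Aurka, Aurkb and Bub1, the kinetochore proteins Cenpe and Cenpf, the topoisomerase Top2a and the proliferation marker Mki67. These later genes are known for promoters with CCAAT boxes and a short element called CHR. T and NK cells divide on activation, and tissue macrophages can divide in place, whereas mature neutrophils do not.

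The promoters of the 2 lists differed in the letters they hold, and 5 of them, chosen after the matches had been counted, are printed as examples. Mcm5 and Mcm6 hold the most E2F-type matches, and Top2a holds the most CHR-type matches. Cdk1, like Mki67 and the S phase gene Mcm7, holds all 3 motifs, and Ccnb1 is the member with the lowest ratio in the macrophages described below. Promoters were found for 33 of the 38 members in a RefSeq table of the build GRCm38.p6, not for Mcm4, Gins2, Ccna2, Aurkb and Tpx2, and the 250 bases before each gene's start were searched on both strands. The E2F-type motifs searched were the heptamer TTCCCGC, the heptamer TTCGCGC, the heptamer TTGCCGC and the heptamer TTGGCGC. The CHR-type motifs were TTTGAA with its variant TTCGAA, and the CCAAT box was the pentamer CCAAT. The E2F-type letters TTGGCGC can share bases with a CCAAT box on the other strand. E2F-type letters stood in 9 of 17 S phase promoters (52.9%), in 3 of 16 G2/M promoters (18.8%) and in 7.97% of all 27025 promoters in the table. CHR-type letters stood in 3 S phase promoters (17.6%) and 6 G2/M promoters (37.5%), against 17.4% of all. A CCAAT box stood in 12 S phase promoters (70.6%) and 14 G2/M promoters (87.5%), against 34.5% of all. A match describes the letters of the window and does not show that a factor binds there.

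In the following lines, read 5′ to 3′ on the gene's strand, capitals mark every match to any of the 3 motifs. The Mcm5 window (chr8:75109259-75109508, plus strand) holds 3 E2F-type matches and 2 CCAAT boxes, and the Mcm6 window (chr1:128359706-128359955, minus strand) holds 4 and 2. All E2F-type matches of Mcm6, and some of Mcm5, overlap another on the opposite strand. The Top2a window (chr11:99024190-99024439, minus strand) holds 4 CHR-type matches and 6 CCAAT boxes and no E2F-type match. The Cdk1 window (chr10:69352913-69353162, minus strand) holds 2 E2F-type matches, 2 CHR-type matches and 3 CCAAT boxes. The Ccnb1 window (chr13:100786487-100786736, minus strand) holds 2 CCAAT boxes, 1 of which overlaps an E2F-type match, and no CHR-type match.
Mcm5: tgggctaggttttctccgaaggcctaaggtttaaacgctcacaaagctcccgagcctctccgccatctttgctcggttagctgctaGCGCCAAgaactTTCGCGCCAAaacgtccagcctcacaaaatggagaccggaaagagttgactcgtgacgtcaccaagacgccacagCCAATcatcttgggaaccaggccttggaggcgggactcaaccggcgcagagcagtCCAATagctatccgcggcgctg
Mcm6: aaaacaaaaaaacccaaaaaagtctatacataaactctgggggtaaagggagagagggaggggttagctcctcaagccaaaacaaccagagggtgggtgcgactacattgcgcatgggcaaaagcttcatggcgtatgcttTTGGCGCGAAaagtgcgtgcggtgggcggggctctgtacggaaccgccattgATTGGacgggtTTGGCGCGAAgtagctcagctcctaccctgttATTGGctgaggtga
Top2a: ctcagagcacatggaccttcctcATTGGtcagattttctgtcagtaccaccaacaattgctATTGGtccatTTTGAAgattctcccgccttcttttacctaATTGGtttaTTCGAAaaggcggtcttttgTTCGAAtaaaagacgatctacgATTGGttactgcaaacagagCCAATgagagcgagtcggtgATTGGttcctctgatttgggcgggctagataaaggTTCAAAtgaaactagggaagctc
Cdk1: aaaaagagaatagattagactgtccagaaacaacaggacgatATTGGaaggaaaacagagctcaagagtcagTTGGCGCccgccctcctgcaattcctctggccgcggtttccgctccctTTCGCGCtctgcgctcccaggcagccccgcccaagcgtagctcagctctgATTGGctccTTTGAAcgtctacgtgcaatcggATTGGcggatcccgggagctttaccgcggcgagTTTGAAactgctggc
Ccnb1: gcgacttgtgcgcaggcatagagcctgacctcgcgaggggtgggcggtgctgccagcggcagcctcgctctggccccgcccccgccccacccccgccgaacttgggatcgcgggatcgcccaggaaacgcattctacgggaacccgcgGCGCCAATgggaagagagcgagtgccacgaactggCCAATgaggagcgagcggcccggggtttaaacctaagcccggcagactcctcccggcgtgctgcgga

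After filtering, 30415 Ctrl cells with a median of 4172 UMIs (unique molecules counted) and 31709 BiDT cells with a median of 2619 UMIs remained, and 580 barcodes occurred among the filtered cells of both libraries. Cells were assigned to classes by marker genes, and a class name below stands for that marker gate. The gates took in 16971 Ctrl and 13140 BiDT monocytes or macrophages (median 4499 and 2790.5 UMIs), 1721 and 2689 CD8 T cells (3237 and 3108), 701 and 2340 NK cells (4641 and 3576.5) and 1143 and 568 dendritic cells (3571 and 2322). Another 25.6% of Ctrl and 33.7% of BiDT cells fell in no gate. A level is given as CPM, the UMIs of a gene or list divided by all UMIs of the class and multiplied by 1e6. CPM is not divided by gene length, so it compares a gene between samples and not one gene with another. Because the libraries differ in depth, shares of cells are given after each cell had been thinned at random to 1000 UMIs, which left out no cell, and also as deposited.

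The S phase and G2/M lists were lower in BiDT than in Ctrl in the monocyte or macrophage class and higher in CD8 T, NK and dendritic cells. In monocytes or macrophages the summed G2/M genes stood at 825 CPM in Ctrl against 253 CPM in BiDT, a log2 ratio of -1.71 (interval -1.73 to -1.68), and the S phase genes at 715 and 435 CPM, a log2 ratio of -0.72 (-0.74 to -0.69). In CD8 T cells the G2/M genes stood at 2053 and 3159 CPM (log2 0.62, 0.59 to 0.65) and the S phase genes at 2080.4 and 2609 CPM (0.33, 0.30 to 0.36). In NK cells the G2/M genes stood at 1357 and 1959.9 CPM (0.53, 0.49 to 0.57) and the S phase genes at 1519 and 2075 CPM (0.45, 0.41 to 0.49). With cells thinned, the log2 ratio in monocytes or macrophages was -1.06 for G2/M and -0.28 for S phase, and in CD8 T cells 0.83 and 0.53. Depth, the share of RNA from Malat1, a nuclear RNA (0.410% of UMIs in Ctrl and 0.823% in BiDT), and the median mitochondrial share (1.69% and 1.00%) moved with the treatment label in the whole library, and their part in these differences was not tested.

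**Figure D1:**
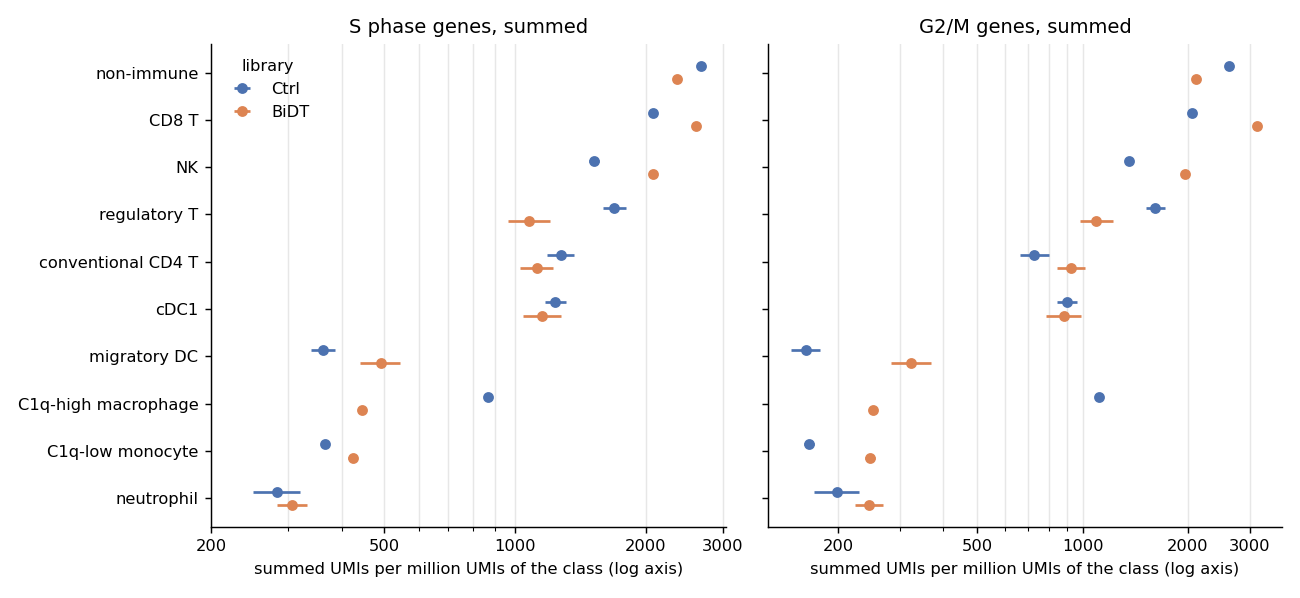
Summed level of the S phase (left) and G2/M (right) genes in each cell class, in CPM of the class on a log axis; points are the single Ctrl (blue) and BiDT (orange) libraries and bars are 95% Poisson intervals. C1q-high macrophages move from 1115 to 252 CPM for G2/M, close to the neutrophils, while CD8 T and NK cells lie further to the right in BiDT.

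Within the monocyte or macrophage class the difference was larger in macrophages with complement C1q than in the other cells, without a test of that difference. Cells with at least 3 UMIs of C1qa, C1qb and C1qc, called C1q-high macrophages here (8862 Ctrl and 5603 BiDT cells, median 5948 and 3169 UMIs), had 1115 CPM of G2/M genes in Ctrl and 252 CPM in BiDT. The ratio was 4.41 times lower in BiDT (log2 -2.14, interval -2.18 to -2.10), and 3.36 times lower with cells thinned. Their S phase genes stood at 868 and 444 CPM, 1.957 times lower (log2 -0.97, -0.999 to -0.94), and 1.498 times lower with cells thinned. Of the members, 19 of 19 G2/M genes and 16 of 19 S phase genes were at least 1.5 times lower, against 12.9% of the 13208 genes counted in these cells (those with at least 50 UMIs over both libraries, as in all counts below). Over the whole class the counts were 19 and 14, against 9.94% of 14275 genes, and the members ranged from -2.79 (Ccnb1, 14.4 and 2.09 CPM) to -1.17 (Tpx2) for G2/M and from -2.09 (Pclaf, 95.3 and 22.3 CPM) to 0.02 (Slbp) for S phase. The median log2 ratio in C1q-high macrophages was -2.26 for G2/M and -1.17 for S phase genes, beside 0.07 over all genes. Malat1 made up 0.391% of UMIs in Ctrl and 0.972% in BiDT C1q-high macrophages, and the median mitochondrial share was 1.91% and 0.726%; the part of these in the result was not tested.

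Ccnb1, Ccna2 and Bub1 had the lowest G2/M ratios in C1q-high macrophages. Ccnb1, the cyclin that takes cells into mitosis, stood at 19.8 CPM in Ctrl against 2.40 CPM in BiDT (log2 -3.04, interval -3.46 to -2.65). Ccna2, the cyclin of S phase and G2, went from 50.4 to 8.68 CPM (-2.54) and Bub1, a spindle checkpoint kinase, from 17.3 to 3.01 CPM (-2.53). The kinase Plk1 was at 17.5 and 3.40 CPM (-2.36) and Cdk1 at 49.3 and 12.0 CPM (-2.04). Mki67 was at 182 and 35.6 CPM (-2.36) and Top2a at 172 and 35.9 CPM (-2.26). The smallest G2/M differences were those of Tpx2, a spindle assembly factor, at 40.3 and 17.2 CPM (-1.23), of Aurka, the kinase that Tpx2 activates, at 17.9 and 6.98 CPM (-1.36), and of the kinetochore motor Cenpe at 57.9 and 18.0 CPM (-1.68). All 19 intervals of the G2/M genes lay below 0.

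The S phase members spread over a wider range in the same cells. Pclaf was at 132 CPM in Ctrl against 22.4 CPM in BiDT (log2 -2.56, -2.69 to -2.43), the lowest ratio of the S phase list. Rrm1, the large subunit of ribonucleotide reductase, was at 55.8 and 17.4 CPM (-1.68), Mcm7 at 41.3 and 13.4 CPM (-1.63), the thymidylate synthase gene Tyms at 21.6 and 7.15 CPM (-1.59), Rrm2 at 33.3 and 11.3 CPM (-1.56) and Mcm5 at 35.7 and 14.9 CPM (-1.26). The members near 0 were Slbp, which binds histone mRNA, at 67.0 and 63.8 CPM (-0.07, -0.16 to 0.01), Pcna at 183 and 153 CPM (-0.25) and the chromatin remodeller gene Hells at 18.5 and 13.5 CPM (-0.46). Pcna and Slbp were also carried by cells with few other cell cycle UMIs: over the gated leukocytes with under 3 UMIs of either list, Pcna stood at 120 CPM in Ctrl against 137 CPM in BiDT and Slbp at 63.0 and 71.6 CPM. Without Pcna and Slbp the log2 ratio of the S phase list was -1.45 in C1q-high macrophages and -1.13 in the whole class. With them it was -0.97 and -0.72, so that without them the S phase and G2/M ratios lay closer together. This leave-out was chosen after the values had been seen.

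**Figure D2:**
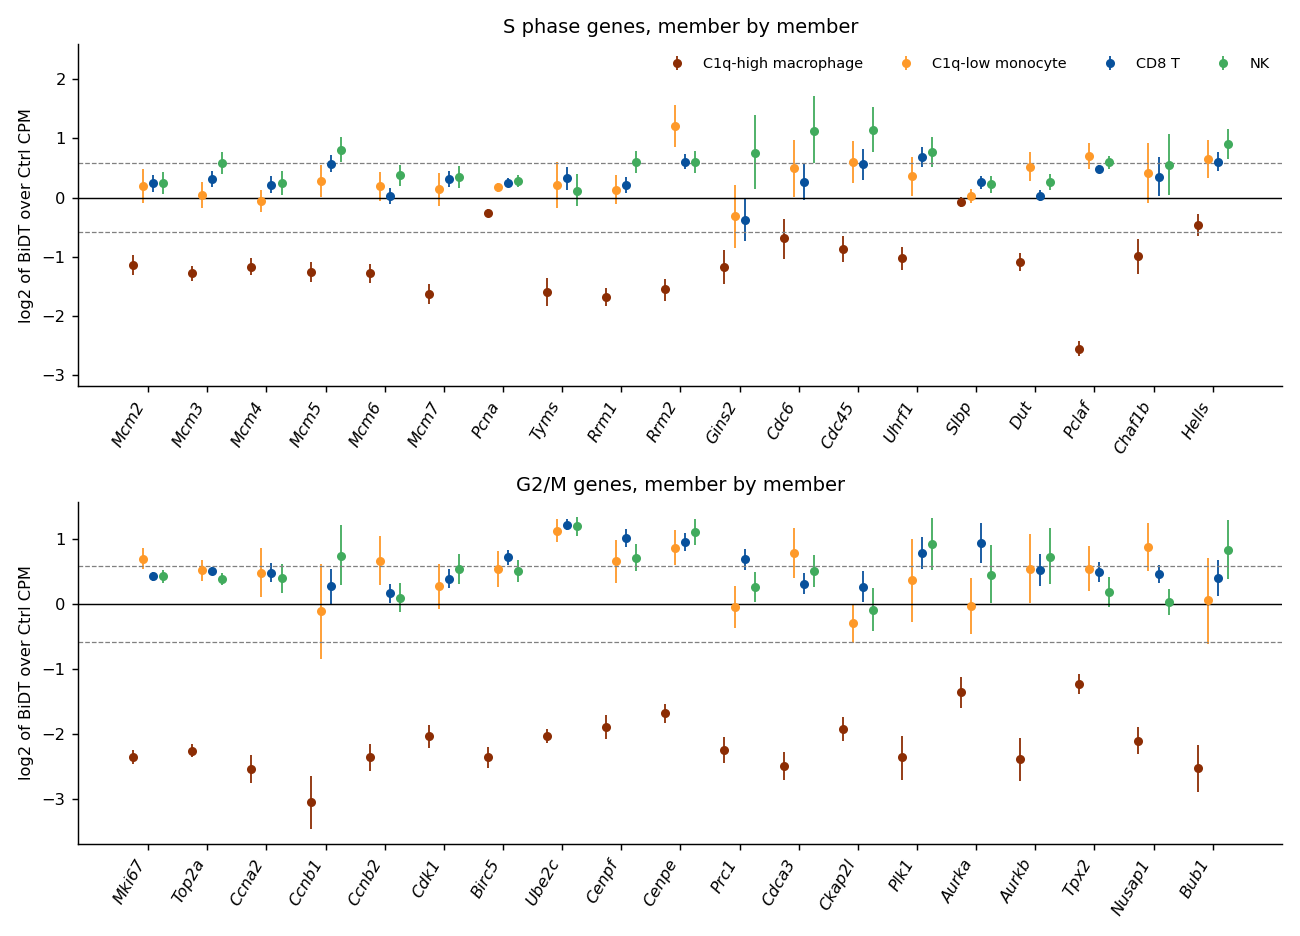
Log2 ratio of BiDT over Ctrl CPM for each S phase gene (top) and G2/M gene (bottom) in C1q-high macrophages, C1q-low monocytes, CD8 T and NK cells; bars are 95% counting intervals and dashed lines mark 1.5-fold. C1q-high macrophages lie below 0 for every member, from -0.07 for Slbp to -3.04 for Ccnb1, and Ube2c and Cenpe are among the highest G2/M genes in the other classes.

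Shares of cells gave the same direction. With cells thinned to 1000 UMIs, 10.99% of C1q-high macrophages in Ctrl (exact Clopper-Pearson interval 10.3 to 11.7) and 1.52% in BiDT (1.21 to 1.87) had at least 3 G2/M UMIs, 7.25 times fewer. For S phase UMIs the shares were 6.71% (6.20 to 7.26) and 2.28% (1.91 to 2.71), 2.94 times fewer. As deposited, they were 27.5% and 7.07% for G2/M and 47.2% and 23.4% for S phase. Neutrophils, which should not divide, were taken as a rough background, but free RNA itself was not measured. With cells thinned 0.220% of Ctrl and 0.893% of BiDT neutrophils reached 3 G2/M UMIs (1 and 9 cells). For S phase UMIs 0.440% and 1.69% did (2 and 17 cells), of 455 and 1008 cells with a median of 1836 and 1704 UMIs. Whether the background is the same in C1q-high macrophages, which had more UMIs per cell, was not tested. The BiDT share of C1q-high macrophages with G2/M UMIs thus overlapped that of neutrophils within their intervals (neutrophils 0.409 to 1.69%), and so did the share with S phase UMIs (0.985 to 2.69%), while the Ctrl shares did not. In CPM, BiDT C1q-high macrophages had 252 (246 to 259) and BiDT neutrophils 245 (224 to 268) for the summed G2/M genes. For the summed S phase genes these classes had 444 (435 to 452) and 307 (283 to 333) CPM, with intervals that do not overlap. As deposited, 2.88% of BiDT neutrophils reached 3 G2/M UMIs and 4.27% reached 3 S phase UMIs, fewer than of BiDT C1q-high macrophages.

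C1q-low monocytes, cells of the same class with monocyte markers and at most 1 C1q UMI (4791 Ctrl and 4590 BiDT cells, median 3910 and 2983 UMIs), did not show the lower levels. Their G2/M genes stood at 166 CPM in Ctrl against 247 CPM in BiDT (log2 0.58, 0.51 to 0.64), and their S phase genes at 366 and 424 CPM (0.21, 0.16 to 0.26). At least 1.5 times higher were 7 of 19 G2/M genes and 4 of 19 S phase genes, and none was as much lower, against 13.2% of 11434 genes higher and 4.7% lower. The highest S phase ratios were those of Rrm2, at 5.01 and 11.6 CPM (1.21), Pclaf, at 14.4 and 23.6 CPM (0.71), and Hells, at 7.01 and 11.1 CPM (0.66). The highest G2/M ratios were those of Ube2c, the ubiquitin-conjugating enzyme of the anaphase-promoting complex, at 18.4 and 40.1 CPM (1.13), Nusap1 (0.87) and Cenpe (0.86). Mki67 was at 25.9 and 41.9 CPM (0.70) and Top2a at 27.6 and 39.4 CPM (0.51), while Ccnb1 was at 1.90 and 1.77 CPM (-0.10, -0.84 to 0.62). For 17 of the 19 G2/M genes the level in these monocytes was under 10% of that in another class in both libraries, within the reach of free RNA, and the same held for 8 of the 19 S phase genes, Rrm2, Pclaf and Hells among them. The thinned G2/M shares were 0.647% (0.440 to 0.917) and 1.48% (1.15 to 1.87), with intervals that overlap those of neutrophils in each library. As deposited, the S phase share was 20.7% (19.6 to 21.9) in Ctrl and 17.5% (16.4 to 18.6) in BiDT, against the direction of the CPM, and the thinned S phase share 1.15% and 2.22%. The class also held a different mixture: the part made up of C1q-high macrophages was 52.2% (Ctrl) and 42.6% (BiDT), that of C1q-low monocytes 28.2% and 34.9%. The other cells of the class (3318 and 2947) had 381 and 267 CPM of G2/M genes (-0.52, -0.59 to -0.44) and 478 and 434 CPM of S phase genes (-0.14, -0.20 to -0.08), and with cells thinned -0.15 for G2/M and 0.08 (-0.04 to 0.19) for S phase.

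**Figure D3:**
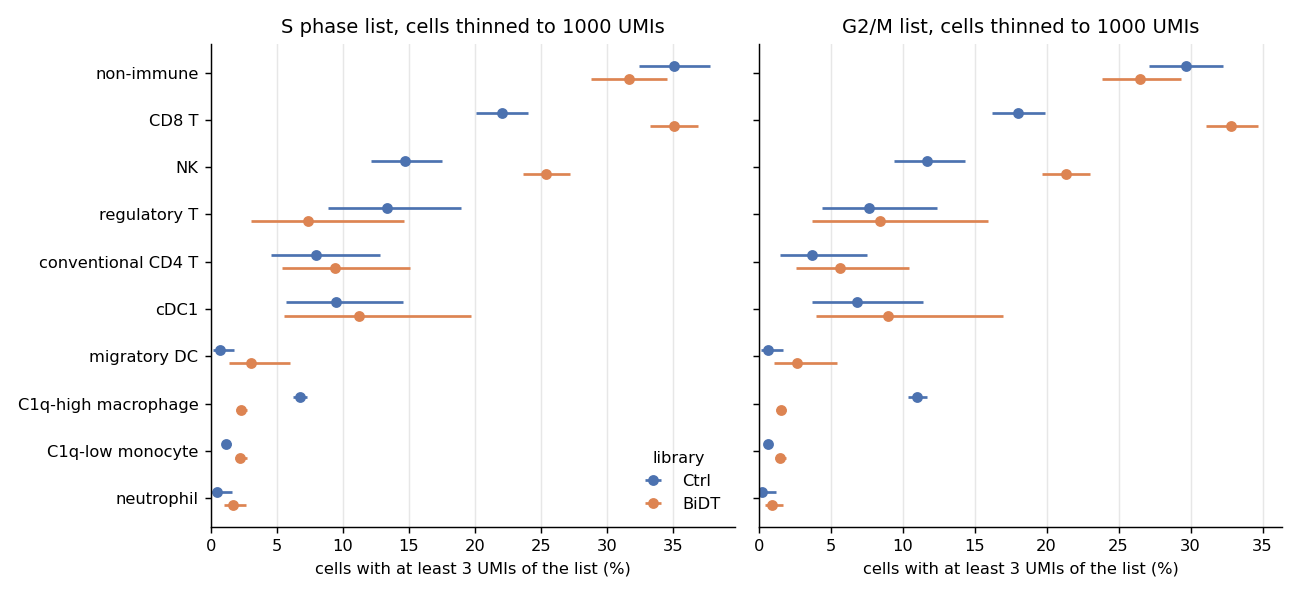
Share of cells with at least 3 UMIs of the S phase (left) or G2/M (right) list after thinning each cell to 1000 UMIs, by class, for Ctrl (blue) and BiDT (orange), with 95% Clopper-Pearson intervals. The G2/M share of CD8 T cells is 18.0% in Ctrl and 32.8% in BiDT, and that of C1q-high macrophages 10.99% and 1.52%.

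CD8 T cells went the other way in all 19 G2/M genes and in 18 of 19 S phase genes, by smaller amounts. At least 1.5 times higher in BiDT were 7 of 19 G2/M genes and 3 of 19 S phase genes, and none was as much lower, against 10.2% of 10530 genes higher and 4.51% lower. The share of S phase members is near that background, and with TMM scaling, which compares each gene with the bulk of genes, it was 1 of 19. The median log2 ratio was 0.49 for G2/M and 0.31 for S phase genes, beside 0.06 over all genes. The G2/M intervals lay at or above 0 for all 19 genes.

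Ube2c, Cenpf and Cenpe led the G2/M list in CD8 T cells. Ube2c stood at 215 CPM in Ctrl against 500 CPM in BiDT (log2 1.22, 1.13 to 1.30), Cenpf at 86.4 and 175 CPM (1.02) and Cenpe at 84.4 and 164 CPM (0.96). The kinase Plk1 was at 27.1 and 46.6 CPM (0.78). Top2a, at 408 and 578 CPM (0.50), Mki67, at 410 and 550 CPM (0.42), and Cdk1, at 78.8 and 103 CPM (0.39), were higher by less than 1.5 times. The smallest ratios were those of Ccnb2, at 91.2 and 102 CPM (0.16), Ckap2l, a spindle protein gene, at 34.2 and 40.95 CPM (0.26), and Ccnb1, at 26.2 and 31.5 CPM (0.27, 0.00 to 0.54).

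Among the S phase genes of CD8 T cells the highest ratios were those of Uhrf1, which helps to copy DNA methylation, at 58.5 and 94.3 CPM (0.69), Hells at 65.5 and 99.8 CPM (0.61), Rrm2 at 113 and 171 CPM (0.60) and Mcm5 at 80.6 and 120 CPM (0.58). Tyms, at 46.2 and 57.8 CPM (0.32), and Pcna, at 315 and 375 CPM (0.25), were higher by less. The lowest were Gins2, a subunit of the replicative helicase complex, at 18.4 and 14.1 CPM (-0.38, -0.74 to -0.03), Mcm6 at 113 and 114 CPM (0.02) and Dut, which removes dUTP, at 219 and 224 CPM (0.03). The thinned share of CD8 T cells with S phase UMIs was 22.02% (20.1 to 24.1) in Ctrl and 35.1% (33.3 to 36.9) in BiDT, and that with G2/M UMIs 18.0% (16.2 to 19.9) and 32.8% (31.1 to 34.6). As deposited these were 50.7% and 66.1%, and 28.6% and 48.3%.

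In CD8 T cells nearly all UMIs of the lists came from cells with at least 3 UMIs of a list. The cells were picked by UMIs of these same lists, so high shares and levels in them are partly built into the split. CD8 T cells with at least 3 UMIs of either list held 97.6% of the class's G2/M UMIs in Ctrl and 99.0% in BiDT, and their G2/M level was 2967 and 3834 CPM. These were 934 of 1721 Ctrl and 1901 of 2689 BiDT cells, counted as deposited. In C1q-high macrophages such cells held 97.3% of the G2/M UMIs in Ctrl and 70.5% in BiDT, and their G2/M level was 1539 and 434 CPM. These macrophages also had more UMIs per cell than the others, a median of 8851.5 against 4100.5 in Ctrl and 5260 against 2706 in BiDT, and the part of depth in this split was not tested. Removal of likely doublets took 4.42% of monocytes or macrophages with cell cycle UMIs and 3.63% of the others in Ctrl, and 9.76% and 4.59% in BiDT. In CD8 T cells it took 3.91% and 3.32% in Ctrl, and 2.66% and 5.52% in BiDT.

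NK cells resembled CD8 T cells in direction, with more S phase members past 1.5-fold. At least 1.5 times higher in BiDT were 9 of 19 S phase genes and 7 of 19 G2/M genes, and none was as much lower, against 12.4% of 10350 genes higher and 5.29% lower. The highest S phase ratios were those of Cdc45, at 17.7 CPM in Ctrl against 39.1 CPM in BiDT (log2 1.14, 0.77 to 1.53), Cdc6 at 8.10 and 17.7 CPM (1.13, 0.58 to 1.72) and Hells at 39.2 and 73.6 CPM (0.91). Mcm5 was at 56.2 and 98.4 CPM (0.81), Rrm2 at 76.7 and 116 CPM (0.60), Pcna at 269 and 327 CPM (0.28), Mcm2 at 77.7 and 91.7 CPM (0.24), Slbp at 133 and 155 CPM (0.23) and Tyms at 39.0 and 42.3 CPM (0.12, -0.15 to 0.39).

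Ube2c and Cenpe led the G2/M list of NK cells as they did in CD8 T cells. Ube2c stood at 121 and 276 CPM (1.19, 1.05 to 1.33), Cenpe at 60.5 and 130 CPM (1.11) and Plk1 at 16.2 and 30.6 CPM (0.92). Ccnb1 was at 12.7 and 21.2 CPM (0.74), Cdk1 at 51.4 and 74.3 CPM (0.53), Mki67 at 268 and 360 CPM (0.43) and Top2a at 276 and 359 CPM (0.38). Ccnb2 (0.10), Nusap1, a spindle microtubule protein gene (0.03), and Ckap2l (-0.10) had intervals that include 0. The thinned share with S phase UMIs was 14.7% (12.2 to 17.5) in Ctrl and 25.4% (23.6 to 27.2) in BiDT, and that with G2/M UMIs 11.7% (9.41 to 14.3) and 21.3% (19.7 to 23.0). As deposited these were 55.5% and 61.6%, and 21.8% and 38.7%.

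In dendritic cells the G2/M genes stood at 410 CPM in Ctrl against 661 CPM in BiDT (log2 0.69, 0.58 to 0.80) and the S phase genes at 635 and 758 CPM (0.26, 0.16 to 0.35). At least 1.5 times higher were 9 of the 15 G2/M genes and 2 of the 17 S phase genes with enough UMIs, and none was as much lower, against 17.4% of 8729 genes higher and 5.82% lower. With TMM scaling 2 G2/M genes were, and the S phase log2 ratio was 0.01. The members furthest apart were Cdc45, at 9.01 and 40.8 CPM (2.18, 1.61 to 2.76), Cenpf at 12.8 and 43.9 CPM (1.78) and Cenpe at 17.8 and 58.1 CPM (1.71). Mki67 was at 75.3 and 121 CPM (0.68), Top2a at 80.3 and 132 CPM (0.71) and Pcna at 143 and 159 CPM (0.15). Hells (0.85), Aurkb (0.83) and Slbp (0.53) followed among the highest. The lowest ratios were those of Dut (-0.34), Mcm4 (-0.05) and Gins2 (-0.03) for S phase and of Ccnb2 (-0.25), Cdca3 (-0.21) and Cdk1 (0.18) for G2/M, and their intervals include 0, as do those of Mcm5 (0.42), Tyms (0.45) and Rrm2 (0.28). Thinned shares were 2.89% (1.996 to 4.03) and 6.34% (4.48 to 8.67) for G2/M and 3.50% (2.51 to 4.73) and 5.11% (3.45 to 7.25) for S phase, with overlapping intervals for S phase. As deposited, the S phase share was 24.7% in Ctrl and 21.5% in BiDT, against the direction of the CPM, and the G2/M share 8.57% and 12.0%.

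The dendritic result moved with markers of non-immune cells. These markers, summed, were Sparc, Col1a1, Col1a2, Col3a1, Dcn, Sox9, Epcam, Krt8 and Krt18. BiDT dendritic cells with at least 3 UMIs of either list had 100 CPM of them, against 33.1 CPM in the other BiDT dendritic cells and 37.8 and 44.1 CPM in Ctrl. Restricted to cells with no non-immune marker UMI, the G2/M log2 ratio was 0.53, and with a stricter marker gate 0.20. Among dendritic subsets, migratory cells, with at least 3 summed UMIs of Ccr7, Fscn1 and Ccl22, had 162 and 324 CPM of G2/M genes (log2 1.00, 0.77 to 1.24; 594 and 261 cells), while cDC1, the subset with Xcr1 or Clec9a, had 904 and 886 CPM (-0.03, -0.22 to 0.16; 190 and 89 cells). Only 4 of 19 G2/M genes had enough UMIs in migratory cells. The 48 BiDT migratory cells with at least 3 UMIs of either list had 96.9 CPM of the non-immune markers, against 30.0 CPM in the others. In Ctrl migratory cells these were 21.2 and 39.1 CPM, and in BiDT cDC1 11.7 and 24.1 CPM. The difference between the subsets was not tested.

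The remaining classes were smaller or differed less. Regulatory T cells (195 Ctrl and 95 BiDT cells) had 1692 and 1079 CPM of S phase genes (log2 -0.65, -0.83 to -0.47) and 1615 and 1096 CPM of G2/M genes (-0.56, -0.74 to -0.38). Of the members counted there, 8 of 13 S phase and 5 of 8 G2/M genes were at least 1.5 times lower, and 1 G2/M gene, Ube2c, was as much higher, against 11.2% of 3470 genes lower and 10.6% higher, and the thinned shares overlapped (7.69% and 8.42% for G2/M, 13.3% and 7.37% for S phase). Their Mki67 was at 416 and 241 CPM (-0.79), Top2a at 377 and 237 CPM (-0.67) and Ube2c at 98.5 and 160 CPM (0.70). Conventional CD4 T cells (188 and 159) had log2 ratios of -0.18 for S phase and 0.35 for G2/M. With cells thinned these were 0.09 and 0.21, and both intervals included 0. Non-immune cells, which the CD45 sort still contained (1248 and 1030), had 2621 and 2103 CPM of G2/M genes (-0.32) and 2683 and 2362 CPM of S phase genes (-0.18), and 26.5 to 35.1% of them reached 3 UMIs of a list after thinning, beside 35.1% and 32.8% of CD8 T cells in BiDT.

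Set against each other, the lists shifted in opposite ways in C1q-high macrophages and CD8 T cells. In C1q-high macrophages the S phase list had 0.779 UMIs for each G2/M UMI in Ctrl and 1.76 in BiDT, a log2 change of 1.17 (1.12 to 1.22), and without Pcna and Slbp a change of 0.69 (0.64 to 0.75). Those with under 3 UMIs of each list had 187 CPM of S phase and 100 CPM of G2/M genes in Ctrl, and 232 and 126 CPM in BiDT. The part of such cells in the shift was not tested. C1q-low monocytes had a ratio of 2.21 in Ctrl and 1.71 in BiDT (-0.37, -0.45 to -0.29), the direction of CD8 T cells. For regulatory T cells the interval of the change included 0 (-0.09, -0.34 to 0.16). In CD8 T cells the ratio was 1.01 in Ctrl and 0.826 in BiDT (-0.30, -0.34 to -0.25), and in dendritic cells 1.55 and 1.15 (-0.43, -0.58 to -0.29). In NK cells it was 1.12 and 1.06 (-0.08, -0.14 to -0.02), and without Pcna and Slbp the interval of the change included 0 (-0.02, -0.08 to 0.05).

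Counted by cell, the share with G2/M UMIs alone depended on thinning. Of the 1304 thinned Ctrl C1q-high macrophages with 3 UMIs of either list, 54.4% (51.6 to 57.1) had them from the G2/M list alone and 25.3% (23.0 to 27.8) from the S phase list alone. Of the 191 in BiDT, 33.0% (26.4 to 40.1) had G2/M alone and 55.5% (48.1 to 62.7) S phase alone. As deposited, with more UMIs per cell, G2/M alone made up 11.5% (10.6 to 12.5) in Ctrl and 12.6% (10.95 to 14.4) in BiDT, with overlapping intervals, and with a minimum of 2 UMIs 10.1% and 14.9%, the opposite direction. S phase alone made up 48.5% in Ctrl and 73.6% in BiDT as deposited, the same direction as with cells thinned. With cells thinned, in CD8 T cells G2/M alone made up 23.4% (19.8 to 27.4) of 495 cells in Ctrl and 28.1% (25.7 to 30.6) of 1311 in BiDT, with overlapping intervals. In NK cells it was 24.3% (17.3 to 32.4) of 136 and 30.2% (27.1 to 33.4) of 851, also overlapping. As deposited it was 6.64% and 6.52% in CD8 T cells, and 3.47% and 7.21% in NK cells. Without Pcna and Slbp, the thinned share of all C1q-high macrophages with S phase UMIs was 4.86% in Ctrl and 0.946% in BiDT, beside 0.220% and 0.794% of neutrophils.

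**Figure D4:**
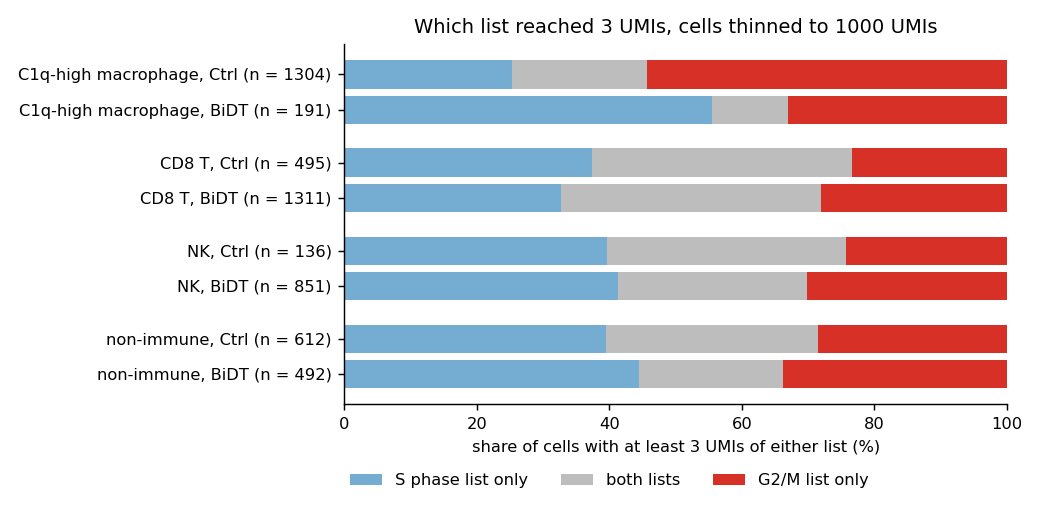
Cells with at least 3 UMIs of either list after thinning to 1000 UMIs, divided into those past 3 UMIs for the S phase list only (blue), both lists (grey) or the G2/M list only (red), in percent, for 4 classes in each library. In C1q-high macrophages the red part is 54.4% in Ctrl and 33.0% in BiDT.

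How each gene's level differed between cells called by the other members was read from the gated leukocytes themselves. Cells were called S-only or G2/M-only from 3 UMIs of the other members, with the gene in question left out, as a description over cells of 1 library each. A gene expressed together with the rest of its list is higher in cells called by that list, so the direction is partly built into the calls. The comparison therefore does not by itself show that a gene marks a phase. All 19 G2/M genes were higher in G2/M-only cells in both libraries. The furthest were Cenpf, with a log2 ratio of G2/M-only over S-only cells of 4.36 in Ctrl and 4.06 in BiDT, Plk1 (4.10 and 4.27) and Ube2c (3.996 and 3.77), and the nearest was Cdk1 in Ctrl (1.76) and Aurkb in BiDT (1.42). Top2a stood at 2.16 and 1.70. In Ctrl S-only cells Plk1 was at 1.01 CPM and Top2a at 25.4 CPM, near the 1.38 and 22.8 CPM of Ctrl cells with neither list.

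The S phase list was less uniform. Mcm2 (-1.73 in Ctrl and -2.06 in BiDT), Mcm3 (-1.11 and -1.55) and Mcm6 (-1.45 and -0.88) lay clearly on the S phase side. Pclaf lay on the G2/M side (2.33 and 1.84), as did Rrm2 (0.92 and 1.09). In G2/M-only cells Pclaf stood at 63.2 CPM in Ctrl against 92.8 CPM in BiDT, against 12.6 and 26.0 CPM in S-only cells and 417 and 616 CPM in cells with both. In cells with neither it stood at 10.5 and 12.9 CPM, so Ctrl S-only cells lay near them. Rrm2 was at 4.52 and 9.60 CPM in S-only cells and at 3.98 and 6.87 CPM in cells with neither. With Pcna left out, 2745 Ctrl and 2117 BiDT cells were S-only, against 4508 and 3346 with Pclaf left out. Part of the S-only cells were thus called through Pcna. Cdc6 changed side between the libraries (0.84 and -1.92), with only 21 and 4 UMIs in G2/M-only cells.

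**Figure D5:**
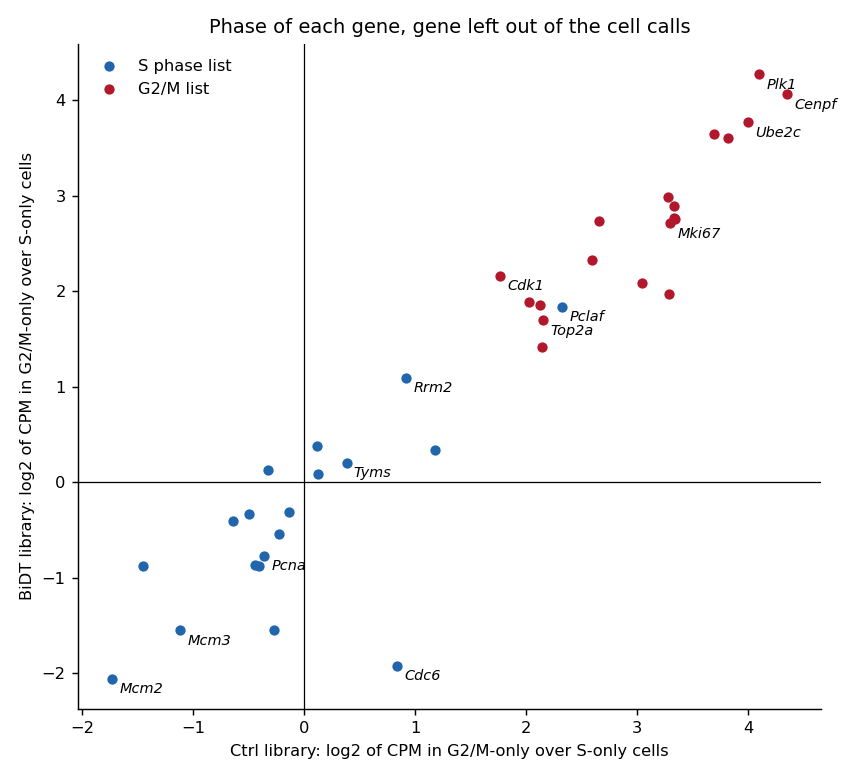
For each member, log2 of its CPM in cells with only G2/M UMIs over cells with only S phase UMIs, Ctrl on the x axis and BiDT on the y axis, over the gated leukocytes with the gene left out of the cell calls. G2/M genes (red) fill the upper right, from 1.76 to 4.36 in Ctrl, and the S phase gene Pclaf lies among them at 2.33 and 1.84.

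Other cell cycle genes, in lists set beside the members, were read in the same classes. Of 22 further mitosis genes, 20 were at least 1.5 times lower in C1q-high macrophages, against 12.9% of the 13208 genes counted there. They were led by the phosphatase gene Cdc25c at 3.78 CPM in Ctrl against 0.349 CPM in BiDT (log2 -3.44, -4.66 to -2.44), Hmmr (-2.57) and the kinesin gene Kif20a (-2.53). Pttg1, which encodes securin, the inhibitor of sister chromatid separation, was higher, at 39.8 and 146 CPM (1.88, 1.81 to 1.95), where 18.3% of all genes counted were at least 1.5 times higher. Pttg1 was also higher in C1q-low monocytes (45.2 and 111 CPM, 1.29) and CD8 T cells (93.4 and 240 CPM, 1.36). Of 20 further replication genes 17 were at least 1.5 times lower in C1q-high macrophages, against the same 12.9% of all genes. They were led by the thymidine kinase gene Tk1 at 25.2 and 5.10 CPM (-2.31), the histone chaperone gene Asf1b (-1.81) and the polymerase gene Pole (-1.65).

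The list of G1 cyclins, kinases and transcription factors, not all of which act before S phase, did not move together in C1q-high macrophages. Of 19 G1 cyclins, kinases and transcription factors, 8 were at least 1.5 times lower and 1 was higher, against 12.9% lower and 18.3% higher over all genes. Lower were Foxm1, an activator of G2/M genes, at 14.8 and 4.32 CPM (-1.78), E2f7, an E2F repressor, at 6.93 and 2.09 CPM (-1.73), and Ccne2, a cyclin of S phase entry, at 11.4 and 3.66 CPM (-1.64). Higher was Ccnd2, a D-type cyclin that couples growth signals to the cycle, at 77.7 and 152 CPM (0.97, 0.91 to 1.03). Of 7 CDK inhibitors, 2 were at least 1.5 times lower, Cdkn2c at 13.0 and 5.45 CPM (-1.26) and Cdkn2d at 29.1 and 19.4 CPM (-0.59), and none was as much higher. Of these 7, 3 had ratios above 0 and 4 below. The summed CDK inhibitor list was nevertheless higher in BiDT, at 1272 and 1512 CPM (0.25, 0.23 to 0.27).

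In CD8 T, NK and dendritic cells more of the further mitosis and replication genes were at least 1.5 times higher than lower. In CD8 T cells 8 of 22 mitosis, 5 of 20 replication and 4 of 19 G1 genes were at least 1.5 times higher and none was lower, against 10.2% higher and 4.51% lower over all genes, with Myc, a driver of cell growth, at 39.3 and 86.5 CPM (1.14), the origin-binding gene Orc1 at 5.45 and 13.8 CPM (1.34) and the checkpoint kinase gene Ttk at 11.3 and 25.0 CPM (1.14). In NK cells the counts were 10, 11 and 9, and 1 G1 gene, the D-type cyclin Ccnd1, was lower, at 27.8 and 16.1 CPM (-0.79), a level within reach of free RNA. Over all genes 12.4% were as much higher in NK cells and 5.29% as much lower. The 4 CDK inhibitors counted in NK cells had ratios from -0.15 to -0.02, and the interval of the summed CDK inhibitor list included 0 (-0.08, -0.17 to 0.02). Orc1 was at 2.28 and 9.32 CPM (2.03), the replication initiation gene Mcm10 at 8.10 and 21.5 CPM (1.41) and the transcription factor gene E2f3 at 16.96 and 42.9 CPM (1.34). In dendritic cells 7 of 15 mitosis, 7 of 16 replication and 7 of 16 G1 genes with enough UMIs were at least 1.5 times higher (17.4% over all genes, 5.82% lower), with Myc at 15.8 and 63.1 CPM (1.995), Foxm1 at 5.41 and 15.5 CPM (1.52) and E2f3 at 12.8 and 35.9 CPM (1.48). The summed G1 list of dendritic cells was nevertheless lower in BiDT, at 1865 and 1694 CPM (-0.14, -0.20 to -0.08).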

How the data were processed

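Single-cell RNA sequencing gave 1 library per group, 211047063 UMIs in Ctrl and 130313537 in BiDT. The authors deposited unnormalized UMI counts for each gene in each barcode. The build GRCm39 and Cell Ranger 7.1.0 are named per the submitters' processing notes, and per the labels' protocols a 10x 3' workflow, but the barcodes have 3 segments of 9 bases, not the form that Cell Ranger writes, so the workflow and counting are uncertain. Doublets were scored with Scrublet (scanpy 1.11.5, expected rate 5%, seed fixed), and cells with at least 300 genes, 500 UMIs, at most 10% mitochondrial UMIs and a score below 0.15 were kept.

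Classes were marker gates: at least 2 UMIs of the class's markers (3 for neutrophil, non-immune and C1q-high cells; for CD8 and CD4 T cells also 1 of Cd8a or Cd8b1, or Cd4) and few of other classes. The markers were listed beforehand and the gate rule was set after the files had been seen. UMIs were summed per class and library, and log2 ratios have exact conditional binomial 95% intervals, CPM exact Poisson ones. With 1 library per group no test was run; the steps were tested on simulated data. TMM used edgeR 4.0.16; other tools were Python 3.11.15, numpy 2.4.6, scipy 1.17.1 and pandas 2.3.3. Finding no cell leaves room for up to 0.00986% of Ctrl and 0.00946% of BiDT cells (3 cells), counting error only.

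The members and lists were chosen with earlier results of these data known. The rule for named genes took, per class and list, the 3 highest and 3 lowest ratios among members with at least 50 UMIs, 9 fixed members, and up to 3 genes per further list and direction; in smaller classes the text gives part of them, and for monocytes or macrophages mostly the C1q-high subset. Alternatives were TMM scaling, thinning, other cell and gene filters, stricter gates and leaving out single members.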

Additional observations from a re-analysis of the deposited data

Results flagged for a closer look

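The list levels went in opposite directions in the monocyte or macrophage class and in the other 3 main classes. Ratios are log2 of BiDT over Ctrl CPM, and the values given here are the other class minus the monocyte or macrophage class. For the S phase list the differences were 1.04 against CD8 T cells, 1.17 against NK cells and 0.97 against dendritic cells. For the G2/M list they were 2.33, 2.24 and 2.40. Each group is 1 library, and these differences were not tested.

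Cells that no gate took in also carried cell cycle UMIs. Of the 7793 such Ctrl cells (median 3647 UMIs) 44.1% (43.0 to 45.2) had at least 3 S phase or G2/M UMIs as deposited, and of the 10680 BiDT cells (median 2132 UMIs) 40.9% (40.0 to 41.8). These cells entered no comparison.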

How the results depend on the processing

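In monocyte or macrophage, CD8 T, NK and dendritic cells no list level reversed its direction under 10 alternatives (11 for S phase). Of these, the gates on thinned counts, the cells without non-immune UMIs, the list without Pcna and Slbp and the cells without shared barcodes were chosen after seeing the data. Elsewhere thinning reversed some levels. The S phase log2 ratio went from -0.18 to 0.09 in conventional CD4 T cells and from -0.10 to 0.03 in cDC1. The G2/M log2 ratio went from 0.30 to -0.10 in neutrophils. Values that moved beyond their counting interval are log2 ratios, given as G2/M then S phase. TMM scaling shifted all log2 ratios by -0.18 in monocytes or macrophages, -0.19 in C1q-high macrophages and -0.25 in dendritic cells. With it they were 0.56 and 0.27 in CD8 T cells, 0.47 and 0.39 in NK cells, 0.45 and 0.012 in dendritic cells and -1.88 and -0.89 in monocytes or macrophages. With cells thinned they were 0.83 and 0.53 in CD8 T cells, 0.62 and 0.51 in NK cells, -1.06 and -0.28 in monocytes or macrophages and, for S phase, 0.38 in dendritic cells. With gates on thinned counts they were 0.89 and 0.51, 1.05 and 0.63, 0.37 and 0.39, and -1.13 and -0.33 in CD8 T, NK, dendritic and monocyte or macrophage cells. With a stricter gate they were 0.58 and 0.57 in NK, 0.20 and 0.091 in dendritic and -1.95 and -0.82 in monocyte or macrophage cells. Without cells carrying non-immune UMIs they were 0.66 and 0.50 in NK cells, 0.53 (G2/M) in dendritic cells and -1.68 and -0.67 in monocytes or macrophages. With doublet scores unused they were -1.56 and -0.66 in monocytes or macrophages. Without Pcna and Slbp the S phase list was at 0.51 in NK cells and -1.13 in monocytes or macrophages, and without its most abundant member at 0.29 in CD8 T cells and -0.93 in monocytes or macrophages. With TMM scaling 1 S phase gene was at least 1.5 times higher in CD8 T cells (3 otherwise) and 2 G2/M genes in dendritic cells (9 otherwise), and 1 S phase gene was as much lower in dendritic cells with TMM scaling, with at least 20 UMIs or with at least 1 UMI in each library (0 otherwise). The causes were not tested. Every filtered cell had at least 1000 UMIs, so that minimum changed nothing. No paired analysis was possible because each group is 1 library.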
